A study of Mus musculus with 48 samples.

Results

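The genes Pmp22, Pmp2, Prx, Cldn19, Egr2, Ncmap and Drp2, taken as markers of myelinating Schwann cells, were followed in whole spinal cord. Pmp22 and Egr2 were also counted in every library of sorted microglia, so neither marks Schwann cells alone in these data. The genes were chosen by symbol, and all 7 were found among the 35870 genes of the count table. All 7 also passed the filter on low counts, which left 18271 cord genes for testing. Polyadenylated RNA was sequenced from male wild type C57BL/6 mice, with 8 libraries in each group. Old repopulated mice, aged 23 months, took an inhibitor of Csf1r, the receptor microglia need to survive, for 5 days and then had 7 days without it. Old mice of 23 months and young mice of 3 months received vehicle. The same 3 groups, again with 8 libraries each, were also sequenced as brain microglia sorted for Cd11b and Cd45. The labels do not say whether the libraries of a group are separate animals, so every p-value measures the spread between libraries.

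Schwann cells wrap the axons of peripheral nerves in myelin, whereas oligodendrocytes make the myelin of the brain and cord. Nerve roots run along the cord as peripheral tissue, and each myelinating Schwann cell there builds compact myelin, junctions within its own sheath, and a scaffold that ties its outer membrane to the basal lamina. How much root stays on a dissected cord can differ between animals, and in bulk tissue fewer Schwann cells and less RNA per Schwann cell cannot be told apart. The amount of root in each library was not recorded in the labels.

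The cord libraries held 15909868 to 33004806 counts in old repopulated mice, 22802459 to 31075737 in old mice and 23756093 to 32172147 in young mice. Old repopulated replicate 6 stood apart: genes of ribosomal proteins took 3.16% of its counts, against 0.925% to 1.27% in the other cord libraries, and results are also given without it. The cord label fitted the central myelin list, whose 16 genes summed to 17227 to 32176 CPM in old repopulated, 16708 to 20758 CPM in old and 15483 to 25029 CPM in young cords. The summed level of 16 genes of dorsal root ganglion neurons, whose cell bodies sit on the dorsal roots, ran between 122 and 2161 CPM in old repopulated cords, 127 and 2371 CPM in old cords, and 138 and 4340 CPM in young cords. CPM expresses counts per library total after TMM scaling, which evens out differences in composition between libraries. The 13 skeletal muscle genes reached 4438 CPM in old repopulated replicate 3, where the next library of that group had 425.9 CPM.

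To compare levels between genes, the deposited TPM values, which account for gene length, were averaged over the 24 cord libraries. Pmp22, a tetraspan glycoprotein of compact peripheral myelin whose duplication causes a hereditary neuropathy in humans, led the 7 genes at 1871 ± 563 TPM and ranked 27 among all genes. Prx, encoding periaxin, a scaffold protein of the Schwann cell membrane, followed at 379 ± 78.4 TPM, and Drp2, a dystrophin-related protein that binds periaxin, at 197 ± 42.6 TPM. Pmp2, a fatty acid binding protein of peripheral myelin, had 109.6 ± 26.6 TPM, Ncmap, a membrane protein of non-compact myelin, 80.0 ± 12.8 TPM, and Cldn19, a claudin of the junctions within the Schwann cell sheath, 71.9 ± 14.3 TPM. Egr2, the zinc finger factor that Schwann cells need in order to myelinate, was lowest at 10.4 ± 2.57 TPM (SD, n = 24 for each). The 24 libraries of Pmp22 lay above all those of Prx, and those of Egr2 below all those of Cldn19. Each neighbouring pair between Prx and Cldn19 had overlapping ranges. Compared within the same library, Prx lay above Drp2 and Pmp2 above Ncmap in all 24. Drp2 lay above Pmp2 in all but old repopulated replicate 6, whereas the order of Ncmap and Cldn19 varied. The authors' length of Egr2 is 9365 bases, against 3398 exon bases in GENCODE M21, so its TPM level depends on that length.

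In GENCODE M21 on GRCm38, the genes are spread over different chromosomes. Pmp22 lies at chr11:63128982-63159547 on the + strand and Pmp2 at chr3:10179851-10183929 on the - strand. Pmp2 shares 1224 exon bases with the predicted gene Gm37389 on the same strand, so its reads may have been split. Prx lies at chr7:27499324-27520214 on the + strand and shares 300.0 exon bases with Gm15541 on the other strand. Cldn19 lies at chr4:119255414-119262438 on the + strand, with 90.0 exon bases shared with the antisense Gm12927, and the library kit does not keep the strand. Egr2 lies at chr10:67535475-67542188 and Drp2 at chrX:134404551-134456573, both on the + strand, and Ncmap at chr4:135369576-135398227 on the - strand.

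RefSeq promoter windows on GRCm38.p6, 250 bases before each annotated start, were matched for 5 of the 7 genes and gave 14 windows. The windows printed here are a selection of the 14, and all of them except that of Cldn19 hold a CCAAT match. They come from members that varied together from library to library, and Pmp22, Cldn19, Egr2 and Ncmap moved against Prx with age. That does not set which starts are printed, and a link between the CCAAT matches and these levels was not tested. Capitals mark CCAAT or, on the other strand, ATTGG. The windows are chr11:63128732-63128981 on the + strand for Pmp22, most upstream start, chr11:63131207-63131456 on the + strand for Pmp22, next start, chr4:119255191-119255440 on the + strand for Cldn19, upstream start, chr7:27499074-27499323 on the + strand for Prx, chr4:135385673-135385922 on the - strand for Ncmap, inner start and chr10:67537619-67537868 on the + strand for Egr2, an inner start.
Pmp22, most upstream start: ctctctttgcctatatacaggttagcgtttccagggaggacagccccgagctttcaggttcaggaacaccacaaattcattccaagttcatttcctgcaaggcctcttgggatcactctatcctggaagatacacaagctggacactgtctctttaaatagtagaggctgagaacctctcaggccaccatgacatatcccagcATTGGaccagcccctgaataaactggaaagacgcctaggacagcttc
Pmp22, next start: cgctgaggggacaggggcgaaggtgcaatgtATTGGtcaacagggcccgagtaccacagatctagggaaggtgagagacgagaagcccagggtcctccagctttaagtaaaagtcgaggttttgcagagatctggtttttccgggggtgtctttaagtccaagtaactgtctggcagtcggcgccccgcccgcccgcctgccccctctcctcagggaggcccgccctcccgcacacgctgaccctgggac
Cldn19, upstream start: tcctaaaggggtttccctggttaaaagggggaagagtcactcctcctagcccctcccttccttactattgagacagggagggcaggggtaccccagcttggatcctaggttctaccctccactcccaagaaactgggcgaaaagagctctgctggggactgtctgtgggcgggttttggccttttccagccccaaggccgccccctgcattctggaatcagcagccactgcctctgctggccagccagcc
Prx: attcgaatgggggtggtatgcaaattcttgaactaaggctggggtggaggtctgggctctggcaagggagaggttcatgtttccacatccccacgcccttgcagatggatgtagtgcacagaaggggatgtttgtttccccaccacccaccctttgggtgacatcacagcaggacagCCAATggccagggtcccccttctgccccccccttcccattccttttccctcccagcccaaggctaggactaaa
Ncmap, inner start: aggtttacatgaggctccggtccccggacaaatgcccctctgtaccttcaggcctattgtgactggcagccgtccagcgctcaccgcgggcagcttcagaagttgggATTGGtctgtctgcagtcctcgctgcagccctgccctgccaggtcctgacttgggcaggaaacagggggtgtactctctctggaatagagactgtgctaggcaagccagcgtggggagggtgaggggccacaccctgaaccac
Egr2, an inner start: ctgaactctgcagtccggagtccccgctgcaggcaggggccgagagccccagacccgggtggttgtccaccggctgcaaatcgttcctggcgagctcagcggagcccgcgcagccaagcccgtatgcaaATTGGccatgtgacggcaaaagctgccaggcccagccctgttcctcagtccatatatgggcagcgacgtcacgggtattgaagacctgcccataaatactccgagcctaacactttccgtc
A CCAAT match was found in 7 of the 14 windows, against 33.8% of 32851 promoters of the same length. The matching Egr2 windows overlap and hold the same match. The Cldn19 windows hold none. Neither do windows left out here: the upstream Ncmap start, the Pmp22 starts further downstream and the more upstream Egr2 starts. The other motifs searched on both strands were GCGNGGGCG, a site letter pattern of Egr factors, found in 0 of 14 windows and in 4.7% of all promoters, ACAANG, a short Sox pattern, found in 1 of 14 windows and 36.3% of promoters, and TATAAA, found in 0 of 14 windows and 12.4% of promoters. These are matches of letters in the windows and are not measured binding sites.

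With age, Pmp22 and Cldn19 fell in old cords, and the other 5 genes did not pass the test. Pmp22 dropped to 0.624 of its young level and Cldn19 to 0.775. Thus 2 of 7 genes were called lower and 0 higher, where 6.15% of all cord genes were called in either direction, 4.88% higher and 1.26% lower. The median log2 fold change of the 7 was -0.20, beside -0.01 over all genes tested. The test throughout was edgeR's quasi-likelihood test with Benjamini-Hochberg adjustment over all genes, called at an adjusted p under 0.05.

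Among the genes of compact and non-compact myelin, Pmp22 had a lowest, median and highest level of 1112, 1281 and 1601 CPM in old repopulated cords, 1019.8, 1304 and 1739 CPM in old cords, and 1582, 2103 and 2479.6 CPM in young cords. Only the single highest library of the old cords, and of the old repopulated cords, reached into the young range. Pmp22 averaged 1301 ± 206 CPM in old cords and 2084 ± 324 CPM in young cords (SD, n = 8 each), a log2 fold change of -0.68 (SE 0.11, adjusted p = 8.8e-05 by edgeR).

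Pmp2 ran over 36.6, 51.7 and 70.8 CPM in old repopulated cords, 34.8, 58.2 and 74.9 CPM in old cords, and 32.1, 47.0 and 67.3 CPM in young cords, again as lowest, median and highest. The groups overlapped, and 2 of the 8 old libraries lay above the highest young one. Its log2 fold change in old against young cords was 0.33 (95% interval 0.02 to 0.64, adjusted p = 0.32 by edgeR).

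Ncmap ran over 51.8, 61.4 and 104.8 CPM in old repopulated cords, 51.9, 63.0 and 85.8 CPM in old cords, and 45.6, 56.6 and 71.7 CPM in young cords. The top value belonged to old repopulated replicate 6, the library that stands apart. In old against young cords its log2 fold change was 0.18 (95% interval -0.07 to 0.42, adjusted p = 0.59 by edgeR).

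Cldn19 ran over 86.3, 101.6 and 118 CPM in old repopulated cords, 80.3, 94.8 and 126 CPM in old cords, and 103, 129.9 and 146 CPM in young cords. Among the old libraries 6 of 8, and among the old repopulated ones 4 of 8, lay under the lowest young one. Cldn19 averaged 97.6 ± 13.6 CPM in old cords and 126 ± 16.5 CPM in young cords (SD, n = 8 each), a log2 fold change of -0.37 (SE 0.09, adjusted p = 0.012 by edgeR). On the log2 TPM scale, the Cldn19 difference was -0.34 and no longer passed (adjusted p = 0.12 by limma with either pseudocount).

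Prx and Drp2, the scaffold pair, were not called. Prx ran over 529, 649 and 848 CPM in old repopulated cords, 513, 688 and 891 CPM in old cords, and 609.9, 811 and 968 CPM in young cords. Its log2 fold change in old against young cords was -0.23 (95% interval -0.44 to -0.02, adjusted p = 0.31 by edgeR). Drp2 ran over 329.8, 519 and 692 CPM in old repopulated cords, 427.7, 569 and 681 CPM in old cords, and 540.2, 648 and 771 CPM in young cords. In old against young cords its log2 fold change was -0.20 (95% interval -0.42 to 0.02, adjusted p = 0.43 by edgeR). All groups overlapped for both genes, with the lowest Drp2 library being old repopulated replicate 6.

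Egr2, the transcription factor, ran over 27.4, 35.0 and 49.9 CPM in old repopulated cords, 28.6, 40.5 and 46.5 CPM in old cords, and 19.4, 30.2 and 38.9 CPM in young cords. Among the 8 old libraries, 6 lay above the highest young one. Its log2 fold change of 0.42 (SE 0.13, adjusted p = 0.064 by edgeR) did not pass the threshold. It was called under 4 of 10 alternative settings, with adjusted p-values between 0.013 and 0.16, and when old repopulated replicate 3 (0.039), old repopulated replicate 6 (0.040), old replicate 5 (0.029) or young replicate 5 (0.022) was left out, in edgeR fits. In old against young cords no member had groups free of overlap, where 3.06% of all genes did.

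**Figure D1:**
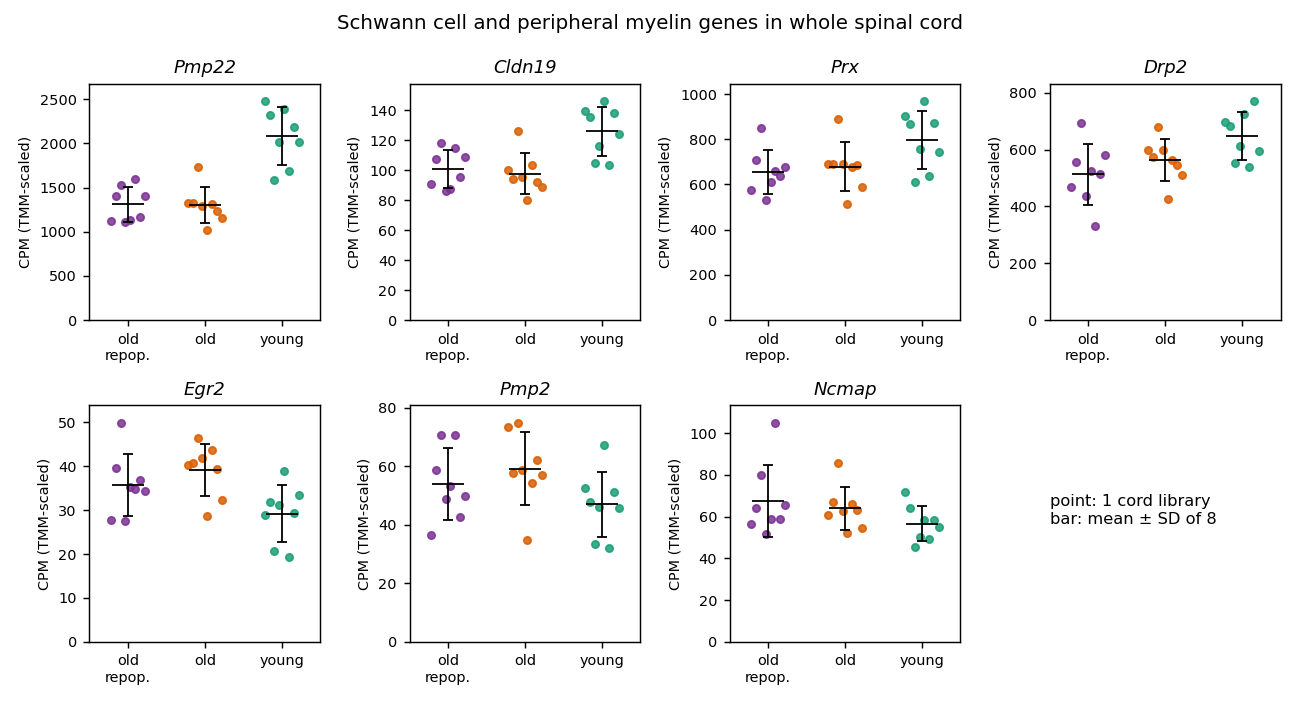
Level of each gene in whole cord as TMM-scaled CPM (y axes start at 0), 1 point per library and a bar for the mean ± SD of 8 libraries in old repopulated, old and young mice. Pmp22 averaged 1301 CPM in old and 2084 CPM in young cords, whereas the old repopulated and old groups overlap in every panel.

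Repopulation made no difference that passed the test: 0 of 7 genes were called between old repopulated and old cords, where 0.148% of all genes were called. Their log2 fold changes lay between -0.13 and 0.08 with adjusted p-values of 0.70 to 0.98 by edgeR, and 0 of 7 had an unadjusted p under 0.05. DESeq2's Wald test also called 0. The approximate 95% intervals ran no lower than -0.44, for Pmp2, and no higher than 0.32, for Ncmap. Pmp22 averaged 1309.6 ± 199 CPM in old repopulated cords and 1301 ± 206 CPM in old cords (SD, n = 8 each), a log2 fold change of 0.01 (95% interval -0.20 to 0.22). Without old repopulated replicate 6, the 7 fold changes ran between -0.20 and 0.02 and again none was called.

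The old repopulated cords were also set against the young ones. This comparison shares its libraries with both others, so it is no separate evidence of an age difference. Pmp22 and Cldn19 were called lower, 2 of 7 genes, where 10.1% of all genes were called in either direction and 2.78% were lower. Pmp22 had a log2 fold change of -0.67 (SE 0.11, adjusted p = 7.1e-05 by edgeR) and Cldn19 one of -0.32 (SE 0.09, adjusted p = 0.025 by edgeR). Cldn19 lost the call without young replicate 1, at -0.30 and an adjusted p of 0.051 by edgeR. Drp2 reached -0.33 (adjusted p = 0.061) and Prx -0.28 (adjusted p = 0.10), both by edgeR. Without old repopulated replicate 3 both were called, Drp2 at -0.41 (adjusted p = 0.016) and Prx at -0.34 (adjusted p = 0.039) by edgeR, and Drp2 was also called without old repopulated replicate 8 (0.045) and without young replicate 6 (0.050). Egr2, Ncmap and Pmp2 had log2 fold changes of 0.29, 0.25 and 0.20 and were not called.

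**Figure D2:**
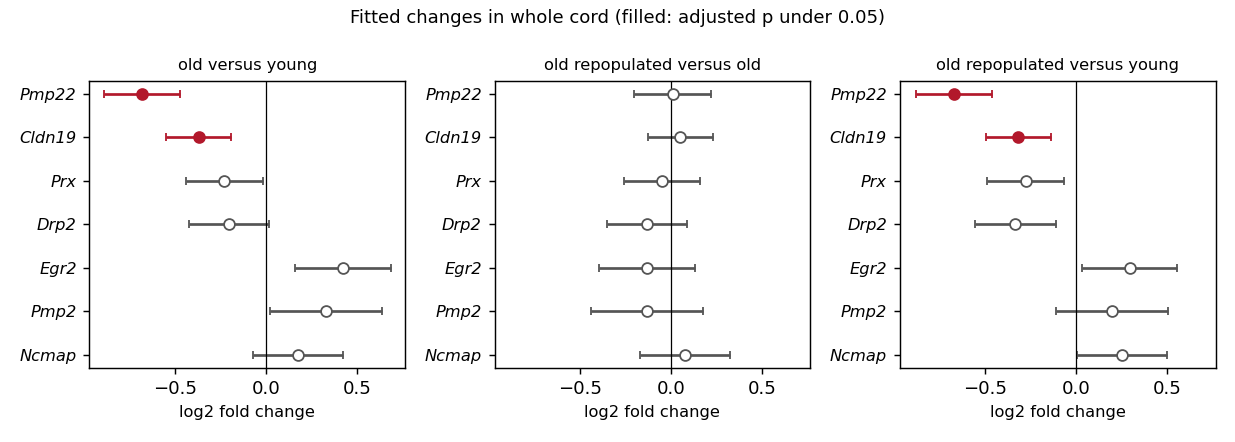
Log2 fold change of each gene (x axis) with its approximate 95% interval (normal, from the SE) for the 3 cord comparisons, filled where the adjusted p was under 0.05. Pmp22 and Cldn19 are filled in both comparisons with young cords, at -0.68 and -0.37 for old against young, and no gene is filled for old repopulated against old.

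Within each group, the genes varied together from library to library. Old replicate 3 was the highest and old replicate 5 the lowest of the old libraries for all 7 genes. Young replicates 3 and 6 were the 2 lowest young libraries for all 7, and old repopulated replicate 3 was among the 2 highest of its group for all 7. After subtracting group means from log2 CPM, 20 of 21 gene pairs correlated over the 24 libraries at an adjusted p under 0.05 (two-sided permutation within groups, Benjamini-Hochberg over the 21 pairs), with r between 0.20 and 0.97 and a median of 0.79. These genes share the library's depth and scaling, and the share of pairs called among other genes was not computed. The closest pair was Pmp22 and Cldn19 (r = 0.97, rho = 0.96, permutation p = 1e-05 for each, the smallest it can give, adjusted p = 2.6e-05), and r was 0.96 without the 2 libraries farthest from the median of Pmp22.

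The exception was Ncmap with Drp2 (r = 0.20, rho = 0.56, permutation p = 0.43 and 0.0079, adjusted p = 0.43 and 0.0079). Old repopulated replicate 6 decided that value: it had the highest Ncmap and the lowest Drp2 of its group, at 104.8 and 329.8 CPM, and without it r was 0.86. Without that library all 21 pairs had r between 0.69 and 0.97, with a median of 0.86. In TPM the same library had 1016 for Pmp22, the lowest of all 24, although its 1601 CPM were the highest of its group. Without the 2 farthest libraries of each pair, r ran between 0.35 and 0.96.

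**Figure D3:**
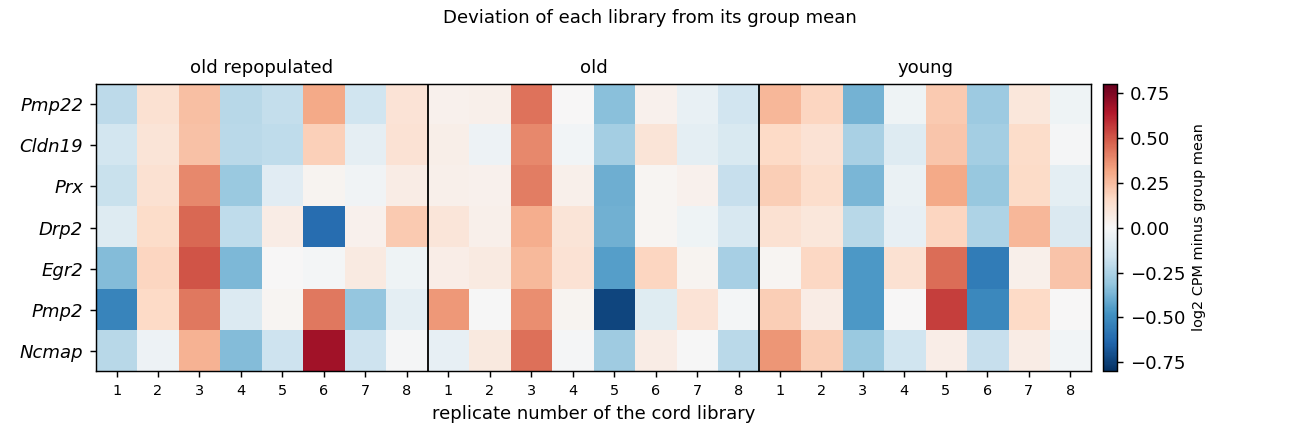
Heat map of log2 CPM minus the group mean for the 7 genes (rows) in the 24 cord libraries (columns, by group and replicate number), red above and blue below the mean. Old replicate 3 is red and old replicate 5 blue in every row, and old repopulated replicate 6 is red for Ncmap and blue for Drp2.

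Among the genes most like the mean of the 7, of 14214 with at least 1 CPM, were Ndrg1, Sema3b, Emp2 and Pttg1ip (each r = 0.97 over 24 libraries), Smtn (0.96), Plekha4 (0.95), Ctnnal1 (0.94), Fkbp9 (0.93), Dusp15, Tmco4 and Kif19a (each 0.91). Only 65 of these 14214 genes reached 0.8, and the median over the 14214 was 0.02. Among the lists, the 16 genes of dorsal root ganglion neurons had r between -0.37 and -0.10, the 16 of central myelin a median of 0.06, and the 16 of meninges and fibroblasts a median of 0.67. The 15 other myelinating Schwann cell genes ran from 0.01 to 0.98, with a median of 0.49. Medians were 0.32 for 19 Schwann cell regulators and 0.34 for 17 genes of the dystroglycan and laminin complex. They were -0.02 for 16 non-myelinating and immature Schwann cell genes and 0.20 for 14 of the nerve sheaths (perineurium and endoneurium). The ganglion sum did not follow the 7 genes in all groups. Young replicate 5, high in the 7 genes, had the lowest ganglion sum of its group, at 138 CPM, whereas old replicate 3, highest in the 7 genes, had the highest of its group, at 2371 CPM.

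Since the genes share so much of their variation, each was also set against Prx in the same library, a ratio chosen after its values were seen. Relative to Prx, Pmp22 was lower in old than in young cords and Egr2, Pmp2 and Ncmap were higher. Prx itself had a log2 fold change of -0.23, so a gene with no difference of its own lies above 0 on this ratio: over the 17985 other genes with reads in every cord library, the median log2 difference was 0.22 for old against young cords. Of those genes 3.65% had old and young ratios without overlap, 3.56% higher and 0.089% lower. Ratios are reads of a gene per 100 reads of Prx, compared with an exact permutation test of 8 against 8 libraries (two-sided), adjusted over the 18 ratio tests. The smallest p that test can give is 0.00016. The test sets each log2 difference against 0, not against the 0.22 of the median gene.

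Pmp22 had a lowest, median and highest ratio of 180.2, 193 and 199 in old cords and 246, 265 and 275 in young cords, without overlap. The log2 difference was -0.45, or 0.731-fold (exact p = 0.00016, adjusted 0.00048). Egr2 had 5.21, 5.77 and 6.43 in old cords and 3.04, 3.54 and 4.48 in young cords, also without overlap. Its log2 difference was 0.67, or 1.59-fold (exact p = 0.00016, adjusted 0.00048).

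Ncmap had 8.76, 9.44 and 10.1 in old cords and 6.00, 7.40 and 7.96 in young cords, without overlap. That is a log2 difference of 0.40, or 1.32-fold (exact p = 0.00016, adjusted 0.00048). Pmp2 had 6.78, 8.46 and 10.6 in old cords and 5.03, 5.85 and 6.95 in young cords, where the lowest old library lay within the young range. Its log2 difference was 0.56, or 1.47-fold (exact p = 0.00031, adjusted 0.0008).

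Cldn19 had 13.4, 14.3 and 15.7 in old cords and 15.1, 15.8 and 17.1 in young cords, a smaller log2 difference of -0.14 (exact p = 0.0023, adjusted 0.0046). Drp2 had 76.4, 83.3 and 86.8 in old cords and 74.8, 80.5 and 90.4 in young cords, with a log2 difference of 0.02 (exact p = 0.57, adjusted 0.60). That difference is smaller than the SD of the log2 ratio, which was 0.07 in old and 0.09 in young cords. Both values depend on the denominator: against the geometric mean of the other 6 members, Drp2 was at -0.15 (exact permutation test, adjusted p = 0.0060) and Cldn19 at -0.34 (exact permutation test, adjusted p = 0.00037). Prx itself was at -0.18 on that scale (exact permutation test, adjusted p = 0.00037), where all 7 members passed. Each member is part of the denominator of the others there, so these are not 7 separate results. The share of all genes passing on that scale was not computed. Between old repopulated and old cords, the median log2 difference over the 17985 other genes was 0.05, and 0.117% had ratios without overlap. None of the 6 ratios to Prx passed there, the closest being Cldn19 at a log2 difference of 0.10 (exact p = 0.053, adjusted 0.095). Leaving out old repopulated replicate 3 brought it to 0.12 and an adjusted exact p of 0.036.

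The old repopulated cords differed from the young ones in 4 of the 6 ratios by the exact permutation test. The share of all genes that passes that test was not computed. Ratios of Pmp22, Egr2 and Ncmap had no overlap, and those of Pmp2 overlapped. Over the 17985 other genes the median log2 difference was 0.28. Of these genes, 4.56% had ratios without overlap, 4.5% higher and 0.0612% lower. Pmp22 had 180.5, 197 and 242 as its lowest, median and highest ratio in old repopulated cords, a log2 difference of -0.40 from young cords (exact p = 0.00016, adjusted 0.00048). Egr2 had 4.82, 5.44 and 5.88, Ncmap 9.06, 9.61 and 15.9, and Pmp2 6.36, 8.34 and 10.7 in old repopulated cords, with the highest Ncmap ratio in replicate 6. These lay above the young cords by 0.57 for Egr2 and 0.51 for Ncmap (exact p = 0.00016, adjusted 0.00048 for each) and by 0.47 for Pmp2 (exact p = 0.00062, adjusted 0.0014) on the log2 scale. Cldn19 (-0.04) and Drp2 (-0.08) did not pass. Without old repopulated replicate 6 the same 4 ratios passed, with Pmp22 at -0.44, Egr2 at 0.58, Ncmap at 0.41 and Pmp2 at 0.42.

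**Figure D4:**
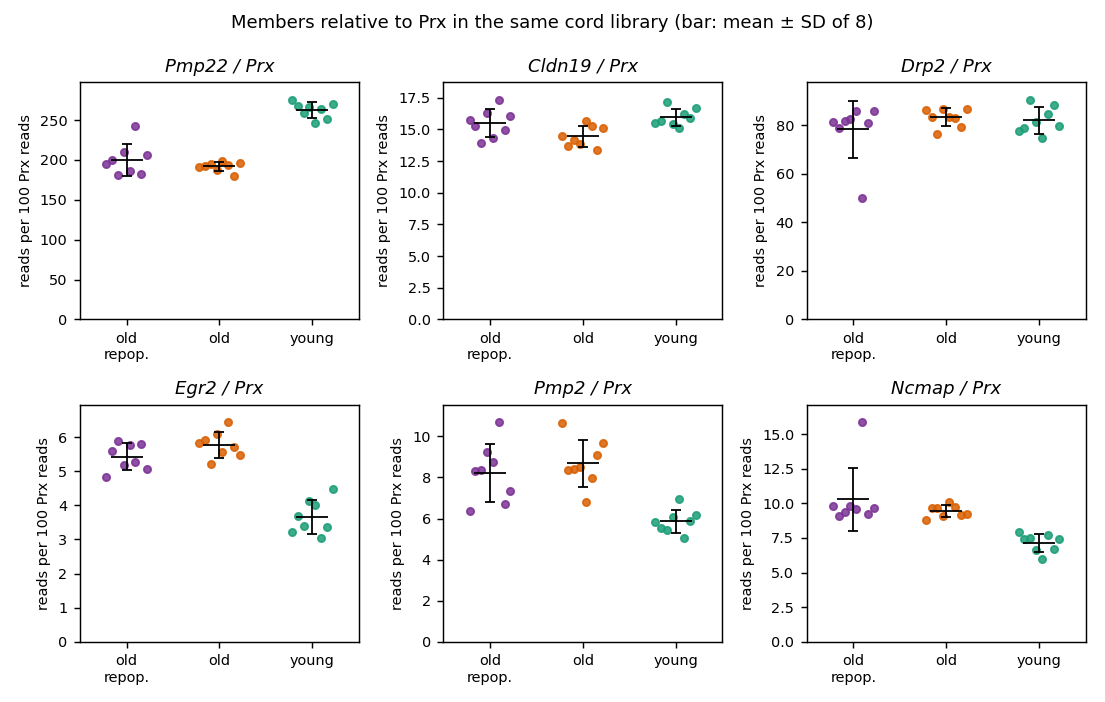
Reads of 6 genes per 100 reads of Prx in the same cord library (y axes start at 0), 1 point per library and a bar for the mean ± SD of 8 in old repopulated, old and young mice. For Pmp22 the old libraries end at 199 and the young ones begin at 246, and for Egr2 the old ones begin at 5.21 and the young ones end at 4.48.

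Other genes of Schwann cells and peripheral myelin were counted in the same fit, in which 6.15% of all cord genes were called between old and young cords, 4.88% higher and 1.26% lower. Of 15 other myelinating Schwann cell genes, 1 was higher and 2 were lower in old cords, with a median log2 fold change of 0.13. Mal, a proteolipid of both central and peripheral myelin, had a log2 fold change of -0.53 (adjusted p = 8.6e-06), and Gldn, the gliomedin that gathers sodium channels at nodes of Ranvier, rose by 0.42 (adjusted p = 0.026), both by edgeR. The gap junction gene Gjb1 had 0.15 and an adjusted p of 0.57 by edgeR.

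Of 19 regulators of Schwann cells, 1 was called in old against young cords, near the share of all genes. It was Pou3f1, the POU factor that precedes myelination, at 0.79 (SE 0.10, adjusted p = 2.6e-06 by edgeR). It averaged 14.7 ± 2.46 CPM in old cords and 8.47 ± 1.17 CPM in young cords (SD, n = 8 each). Erbb2, the neuregulin co-receptor, had 0.35 (adjusted p = 0.071), and Sox10, a factor of both Schwann cells and oligodendrocytes, 0.01 (adjusted p = 0.97), both by edgeR. Of 17 genes of the dystroglycan and laminin complex, likewise near that share, 1 was lower, the basal lamina collagen Col4a1 at -0.42 (adjusted p = 0.027 by edgeR), while Dag1, which encodes dystroglycan, had 0.07. Of 16 genes of non-myelinating and immature Schwann cells, again near it, 1 was higher, Emp1, a relative of Pmp22, at 0.77 (adjusted p = 0.00025 by edgeR). The median log2 fold changes were 0.01 for the regulators, -0.04 for the complex and -0.09 for the non-myelinating and immature genes.

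Markers of neighbouring tissue are given beside these counts, and their part in the results was not tested. Of 16 central myelin genes, 5 were lower in old cords, among them the galactolipid enzymes Fa2h at -0.63 (adjusted p = 4.6e-07) and Ugt8a at -0.64 (adjusted p = 1.8e-05) by edgeR, which Schwann cells use as well. Mbp, a main protein of central myelin, had -0.03 (adjusted p = 0.95 by edgeR). Of 16 meningeal and fibroblast genes, 1 was higher, the matrix proteoglycan Lum at 1.02 (adjusted p = 6e-05), and 3 were lower, led by the transporters Slc22a6 at -1.50 (0.0043) and Slc13a3 at -0.39 (0.0073), by edgeR. Of 14 genes of perineurium and endoneurium, the sheaths inside a nerve, 2 were higher, the Wnt inhibitor Wif1 at 1.49 (adjusted p = 4.2e-05) and the netrin Ntn4 at 0.78 (adjusted p = 3.4e-06), by edgeR. The other 12 of that list were not called, and its median log2 fold change was -0.13. The medians were -0.26 for central myelin and -0.22 for the meningeal and fibroblast genes. None of the 16 ganglion neuron, 12 motor neuron, 13 muscle or 3 tested adipocyte genes was called, and the medians of these were -0.51, -0.18, 0.55 and 0.44. Between old repopulated and old cords 0 genes were called in each of these lists.

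In the microglia sorted from brain, 4 of the 7 genes passed the filter among 14382 genes. These libraries carried the microglial marker P2ry12 at 1564 to 2846 CPM in old repopulated libraries, 2278 to 3307 CPM in old libraries and 3849.7 to 5092 CPM in young libraries. Pmp2 had 0 counts in all 24 libraries, which allows up to 3 counts in each, and Prx, Cldn19, Ncmap and Drp2 averaged under 1 CPM in each group. Pmp22 was present at 401 ± 26.9 CPM in old repopulated, 409.1 ± 50.4 CPM in old and 409.01 ± 25.5 CPM in young microglia (SD, n = 8 each) and was not called in any comparison with TMM scaling. With library totals alone it was called lower in old repopulated against old microglia, at -0.19. That scaling moved the median of all genes to -0.21 and called 2779 of the 14382 genes lower. Egr2 was the only member called: it averaged 14.4 ± 6.00 CPM in old repopulated, 11.9 ± 5.20 CPM in old and 4.27 ± 1.85 CPM in young microglia. Its lowest, median and highest levels were 6.40, 15.1 and 24.9 CPM in old repopulated, 2.98, 11.7 and 20.1 CPM in old, and 1.87, 3.79 and 7.23 CPM in young microglia, so the old repopulated and old groups shared most of their ranges, and the young group overlapped with the low end of both.

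Egr2 had a log2 fold change of 1.48 in old against young microglia (SE 0.31, adjusted p = 0.00049 by edgeR), where 21.7% of all genes were called. It had 0.28 in old repopulated against old microglia (adjusted p = 0.59 by edgeR), where 16.2% were called and none of the members, and 1.75 in old repopulated against young microglia (adjusted p = 3.3e-05 by edgeR), where 32.7% were called. Egr2 was thus higher in old microglia as well as relative to Prx in old cord, and the part of microglial Egr2 in the cord value was not tested.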

How the data were processed

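Per the labels' protocols, mice were perfused, whole cords were frozen, microglia were sorted from dissociated brain, and an unstranded kit was used on polyadenylated RNA. STAR 2.5.2b and GRCm38.p5 appear in the submitters' processing notes, with no role. How reads were counted, and on which annotation, is not given in the sources used here. As deposited, counts are raw whole reads per gene, used as they stand. The deposited TPM are counts scaled by length and per library, which was checked on the tables, and served for levels between genes and as an alternative. The deposited FPKM were not used here.

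The count test was edgeR 4.0.16 under R 4.3.3 (TMM, filterByExpr with minimum count 10 and minimum total 15) over the 24 libraries of each tissue, with Benjamini-Hochberg adjustment and calls at 0.05. Log2 CPM for correlations used a prior count of 1 and 100000 permutations within groups. Correlations, ratios, promoters and figures (and the ratios of all genes to Prx) were computed in Python 3.11.15 with numpy 2.4.6. Alternatives used limma 3.58.1, DESeq2 1.42.0, other scalings and filters, log2 of TPM plus 1 or 0.1, a block on replicate number, and fits leaving out single libraries. The edgeR fit of old against young cords was tested on simulated counts, and the other steps were not. It called 44% of genes with a set log2 change of -0.5 and 54% of those with 0.5. At -1 and 1 it called 95.9% and 90%, so differences of the smaller size can be missed.

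The members and gene lists were chosen with earlier results of these data known. Named genes are the 7 members, up to 3 per list by adjusted p in the age or repopulation comparison, a panel (among them Mbp, Sox10, Dag1 and Gjb1) and the 12 genes most like the members' mean, leaving out predicted and clone names. Some genes that this rule takes are not reported here. Genes of lists with no call are given as list counts and medians. All 168 pairs of libraries within a group lay further apart than sampling noise (chi-square divided by genes 3.40 to 196). Replicate numbers are shared by the groups, but same-numbered cord libraries did not deviate together (median r -0.01, -0.14 and 0.09), so the numbers were not taken to pair libraries.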

Additional observations from a re-analysis of the deposited data

Results flagged for a closer look

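In 21 groups checked (7 genes in 3 cord groups), 3 had a highest library separated from the nearest other by more than Dixon's 95% critical value for 8 libraries, as a share of the range, and chance flags about 1 in 20 groups. All 3 were old replicate 3. Pmp22 had 1739 CPM there, against 1327 CPM in the next old library. Prx had 891 CPM, against 691 CPM in the next. Ncmap had 85.8 CPM, against 66.8 CPM in the next. Ganglion neuron genes were also at their old maximum in that library, at 2371 CPM. The 7 genes are not independent of each other there, and the old against young calls of Pmp22 and Cldn19 were kept without that library.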

How the results depend on the processing

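Pmp22 was called in the old and the old repopulated cords against the young under all 10 alternatives and every left-out library, with log2 fold changes between -0.69 and -0.65 and between -0.77 and -0.66 under the alternatives. For old against young cords, limma on log2(TPM + 1) and log2(TPM + 0.1) called 1 member each, where 820 and 792 of 18271 genes were called. Leaving out a library gave 2 to 3 members, where 943 to 2109 genes were called. For old repopulated against young cords the replicate block called 1 member, Pmp22, where 1408 genes were called. Cldn19 at -0.33 had an adjusted p of 0.054 by edgeR there. Leaving out a library gave 1 to 4 members, where 1507 to 2561 genes were called. Otherwise the block changed no call of a member. In microglia, library totals without TMM called 1 member in old repopulated against old (Pmp22, -0.19, adjusted p = 0.023 by edgeR). They called 2 in old repopulated against young (Pmp22, -0.16, adjusted p = 0.040 by edgeR, and Egr2), while moving the median of all genes to -0.21 and -0.19. That setting called 3371 and 5475 of 14382 genes in these comparisons, 2779 and 3735 of them lower. Set against the other 6 members in place of Prx, 1 ratio was called in old repopulated against old cords and 7 in each comparison with young cords. Each member is part of the denominator of the others on that scale, so these calls are not separate results. The share of all genes called on it was not computed. In old against young cords Drp2 turned to -0.15 and Prx had -0.18 (exact permutation tests, adjusted p = 0.0060 and 0.00037). Leaving out a library gave 0 to 1 ratios in old repopulated against old cords. With Drp2 as denominator, Pmp22 in old repopulated against young cords was at -0.32 and was not called (exact permutation test, adjusted p = 0.074). The cause of these changes was not tested. Over all genes, old against young cords gave 1123 calls (79.4% higher), 2430 by limma-voom with quality weights, 1844 with only those groups and 2109 without old repopulated replicate 6. Old repopulated against old cords gave 27, 66 by DESeq2, 53 by limma-voom, 13 and 12 on TPM, 16 and 17 without old replicates 6 and 8, and 57 without old repopulated replicate 7. Old repopulated against young cords gave 1839 (72.4% higher), 1030 and 1003 on TPM, 1211 with only those groups, and 84.6% higher by library totals. Ratios and correlations were computed after the values were seen or with the members known, and genes of few counts in microglia limit what can be said of the other 5 members there.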
